A study of Mus musculus with 2 samples.

Results

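The interleukins and their receptors were examined in epithelial cells of the submandibular gland, a major salivary gland, from young and aged mice. Members were taken by name: every gene whose symbol in the array files begins with Il and a digit, which gave 82 genes out of 36870 gene names on the array, covered by 148 probes. They comprised 37 ligand genes, 37 receptor chain genes, 6 genes of antagonists or decoy receptors, and 2 genes of other roles that share the name, the L-amino acid oxidase gene Il4i1 and the noncoding RNA gene Il1bos. The donors were female C57BL/6 mice (C57BL/6N in the methods of the study), a young one of 9 weeks and an aged one of 24 months, each on 1 array, and the cells of both were collected with magnetic beads against EpCAM, an adhesion molecule of epithelial cells. The labels name no transgene and no treatment. According to the methods of the study, young and aged mice came from different sources, so age and origin cannot be told apart, and the sorted cells could hold a part of other cell types. Agilent mouse arrays with probes of 60 bases, read in the dye Cy3, measured the RNA. Because there was 1 array per age, no test between the ages was possible, no p-value is given, and no difference below has a replicate check.

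Interleukins are secreted signalling proteins through which immune, epithelial and stromal cells regulate each other, and each acts on cells that carry the matching receptor, usually built from a ligand-specific chain and a chain shared between several cytokines. Receptors of the IL-1 family signal through the adaptor MyD88 and IRAK kinases, those of the IL-17 family through the adaptor Act1 (Traf3ip2), and most others through JAK kinases and STAT transcription factors. Soluble antagonists and decoy receptors hold several of these ligands in check. In salivary glands, epithelial cells both make and respond to interleukins, and these cytokines have been studied in sialadenitis, the inflammation of the gland.

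Levels are given as the log2 of the background-corrected signal over the 75th percentile of the array, and differences are aged minus young on the same log2 scale, so that 1 stands for 2-fold, the threshold named in the methods of the study. A probe counted as detected when the scanner software marked its spot as well above background, and the brightest detected probe by mean level stood for its gene. Where a gene was detected on 1 array only, the difference is a limit, in which the dim side takes whichever is higher, its own value or the weakest signal that array counted as well above background (14.1 for young, 14.3 for aged). Such limits are written as "at least". The ± after a signal is the error the scanner software gave it, and the ± after a difference combines the errors of both signals. They cover the measurement of these spots and not the spread between mice. Levels of different probes are not compared with each other, since probes differ in how well they bind. Over all non-control spots, the share well above background was 55.4% (young) and 50.8% (aged). Probes printed in 10 spots each and detected in every spot, of which there were 293, had a median SD of the difference of 0.034 over their spots.

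Counted by gene, receptor chains were detected more widely than ligands. Any 1 probe was enough for a gene to count, and receptor chain genes had 77 probes where ligand genes had 58. The shares by gene are therefore not on equal terms. A probe passed as well above background in young or aged cells, or both, for 30 of 37 receptor chain genes (81.1%), 20 of 37 ligand genes (54.1%) and 4 of 6 antagonist or decoy genes, compared with 57.7% of all gene names. Of the 82 genes, 54 were detected in young and 47 in aged cells. The 17 undetected ligand genes were Il4, Il5, Il7, Il12a, Il17a, Il17b, Il17c, Il17f, Il19, Il20, Il21, Il23a, Il25, Il31, Il1f6, Il1f9 and Il1f10. The undetected receptor chains were Il9r, Il12rb1, Il12rb2, Il18rap, Il1rapl1, Il20ra and Il23r, and the antagonist Il1f5, the decoy Il22ra2 and the RNA Il1bos were not detected either. Within the IL-17 family the contrast was widest, with all 5 receptor chains but only 1 of 6 ligands detected. Each of these ligands had 1 probe, whereas most of these receptor chains had several. A gene not well above background may still be expressed below what its probes can measure.

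**Figure D1:**
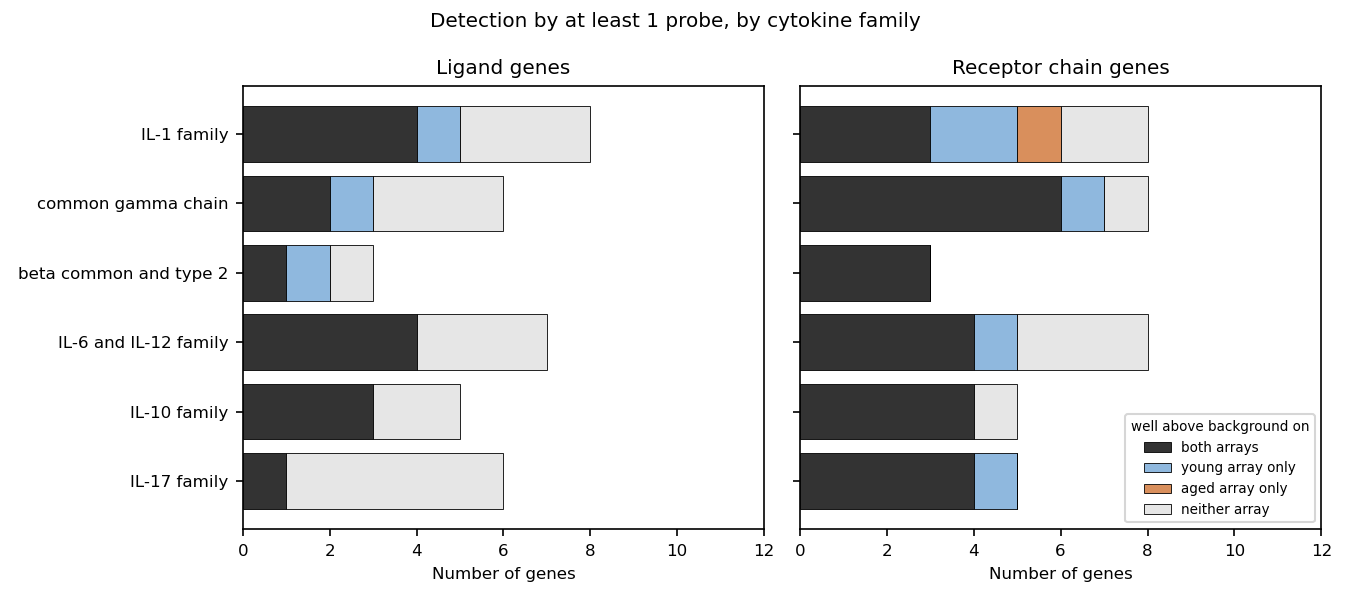
Number of ligand genes (left) and receptor chain genes (right) of each cytokine family that were well above background by at least 1 probe on both arrays, 1 array or neither. In the IL-17 family 1 of 6 ligands and all 5 receptor chains were detected; the ligands Il16 and Il34, which belong to none of these families, were both detected and are not drawn.

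Among the 46 genes measured on both arrays, 2 lay 2-fold or more higher with age and 7 lay 2-fold or more lower, where 1.51% of the 18694 genes of the whole array measured in this way were higher and 3.04% were lower. The higher genes were both ligands, Il12b and Il34. The lower genes were the ligand Il1b, the receptor chains Il10ra, Il1rl1, Il6ra and Il20rb, the IL-1 receptor antagonist gene Il1rn, and Il4i1. A further 8 genes were detected on the young array only, and 3 of them, the receptor chains Il7r, Il1rl2 and Il27ra, were lower by a limit of 2-fold. Over the whole array, 24.9% of genes detected on the young array only reached that limit. The 1 gene detected on the aged array only, Il1rapl2, did not reach 2-fold by its limit of at least 1.93-fold, whereas 52.5% of all genes of that kind did. Counting measured differences and limits together, 2 of the 55 detected members were higher and 10 lower, against 2.53% and 5.14% of the 21286 genes detected on the whole array. The 10 include Il6ra, whose other probe gave a limit in the opposite direction, so its place in that count depends on the probe read. The split of higher and lower members was 3 and 7 with the arrays centred on their medians, 0 and 13 when spike-in controls set the scale, and 0 and 5 with another background correction (normexp). Of all 21286 genes, 800 were higher and 865 lower with median centring, 349 and 1605 with spike-in controls, and 182 and 297 with normexp.

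Receptor chain genes had a lower median than ligand genes, whose split around 0 was close to that of all genes. Of 17 ligand genes measured on both arrays, 10 had a difference above 0 and 7 below 0, with a median of 0.14 and a range from -1.13 to 1.14. Of 24 receptor chain genes, 9 were above 0 and 15 below 0, with a median of -0.17 and a range from -2.05 to 0.44. The 4 measured antagonist or decoy genes had a median of -0.36. Over all 18694 genes the median difference was 0.094, with 11200 genes above 0 and 7494 below 0. With the arrays centred on their medians, the receptor median was 0.002, and with the spike-in controls the ligand median was -0.12, so the sign of neither median held under such shifts of the whole array. The scalings that are not plain shifts, quantile normalization, loess and normexp, gave ligand medians of 0.295, 0.134 and 0.237 and receptor medians of -0.245, -0.320 and -0.132. For 16 of the 46 genes the difference was smaller than its own software error. No test of ligands against receptors was made, since the genes of 1 pair of arrays are not replicates.

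**Figure D2:**
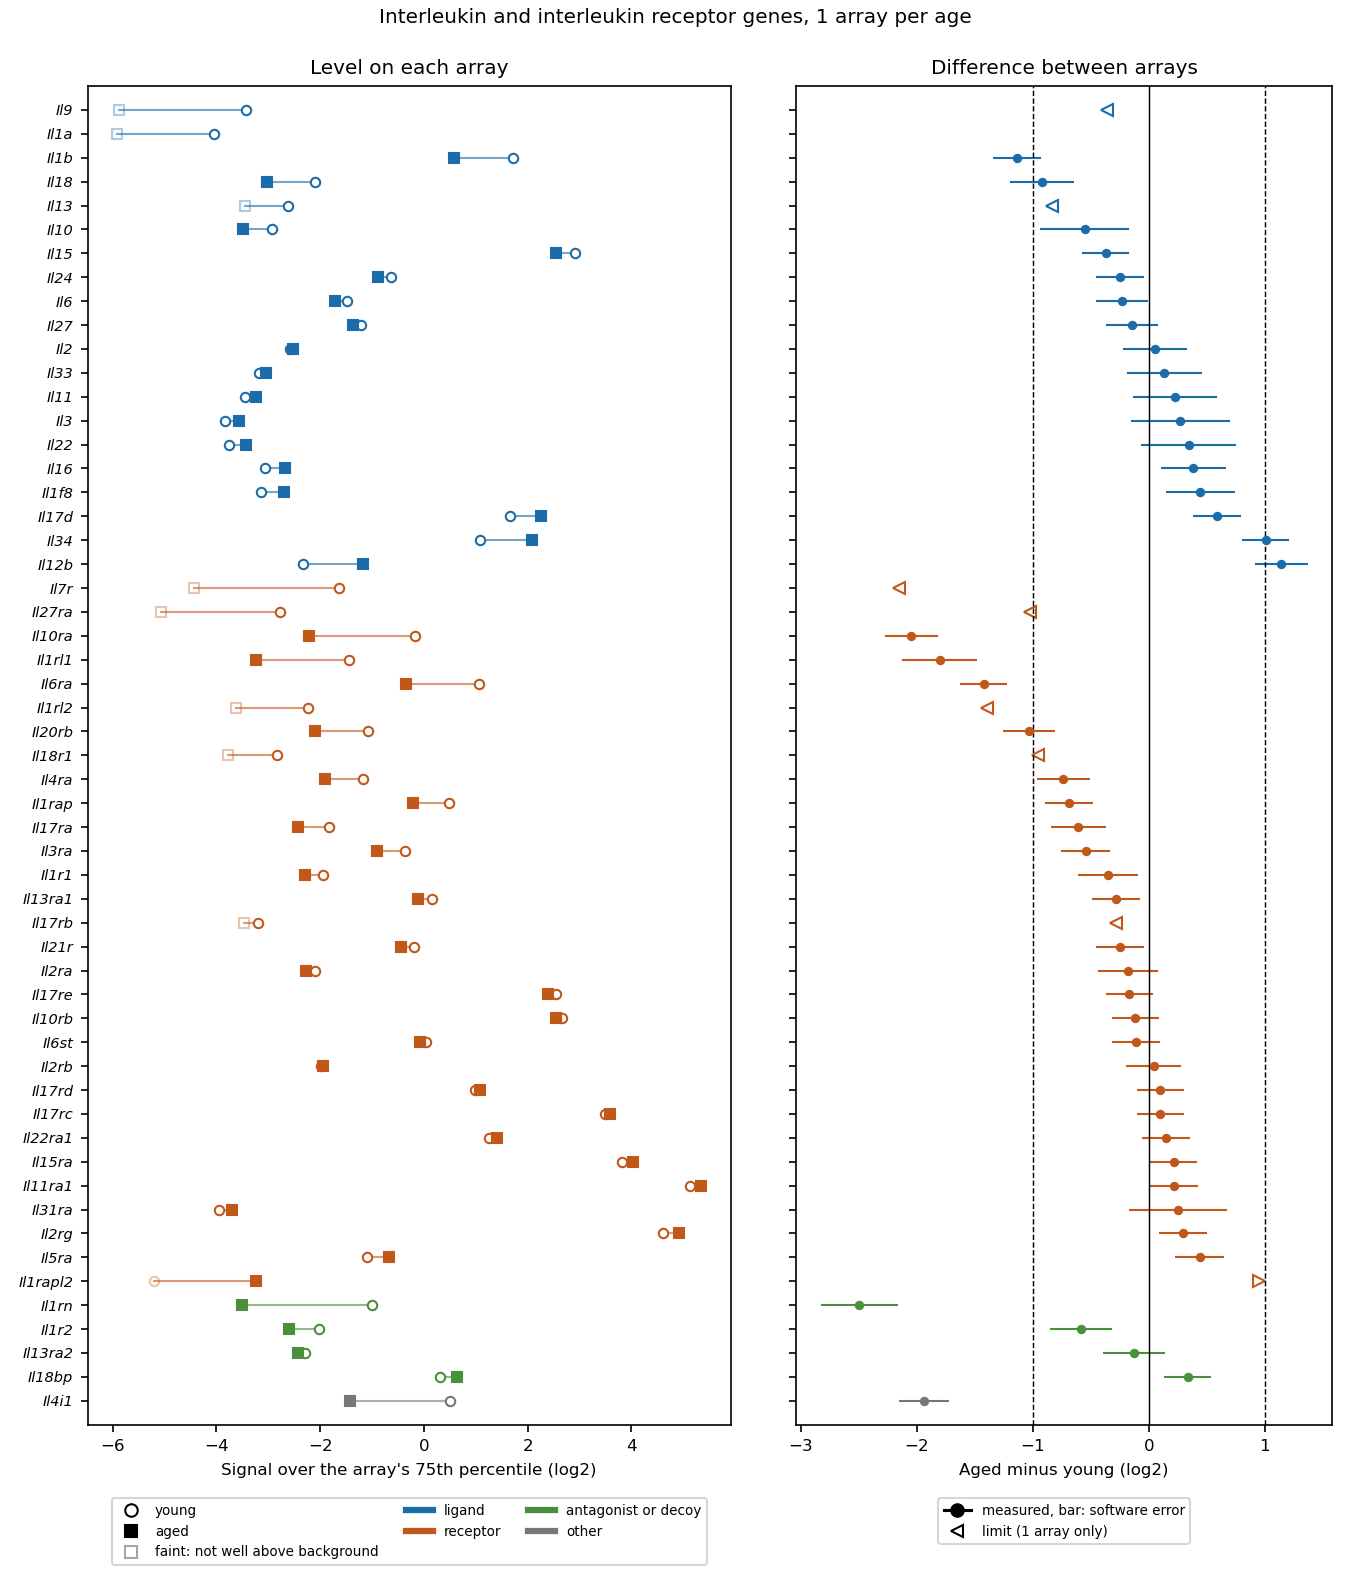
Left, log2 level over the array's 75th percentile on the young (circles) and the aged (squares) array for the 55 detected genes, grouped by role, with faint symbols for probes too dim to be detected. Right, aged minus young on the log2 scale, with bars for the software error and open triangles for limits; dashed lines mark 2-fold, and Il1rn, Il10ra, Il4i1, Il1rl1, Il6ra, Il1b and Il20rb lie beyond the lower line.

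The sorted cells also carried RNA of immune and stromal cells, and markers of macrophages and dendritic cells were lower on the aged array. The 12 genes of that list (Adgre1, Cd68, Csf1r, Itgam, Itgax, Lyz2, Mrc1, Cd163, Flt3, C1qa, C1qb and C1qc) were all measured on both arrays and 10 were at least 2-fold lower, with a median of -1.39. Their summed level, in multiples of the 75th percentile, was 202 in young and 104 in aged cells. Such sums, here and for the lists that follow, add up probes that bind unequally well. They follow the brightest probes, here mainly Lyz2 (log2 levels of 6.54 in young and 4.63 in aged cells), and do not give amounts of cells. Of the 4 pan-leukocyte genes, 3 were at least 2-fold lower and Ptprc differed by -0.21, with summed levels of 19.6 and 9.13. The 9 T cell genes on the array went both ways, with a median of 0.31 over the 6 measured on both arrays, a summed level of 11.4 in young and 13.3 in aged cells, and Cd8a and Cd5 not detected. The 8 B cell genes had a median of -0.19 over the 4 measured on both arrays and summed levels of 2.10 and 1.68, with Cd79a and Blk not detected. Of 7 mast cell genes, Kit and Tpsb2 were detected (0.91 and -1.05) and 5 were not, and 3 neutrophil genes measured on both arrays had a median of -0.18 (Mpo and Cxcr2 not detected). The fibroblast list had a median of -1.21 over 6 genes and the endothelial list -0.56 over 5, while the epithelial list had a median of 0.13 over 8 genes, and Epcam itself differed by 0.20. The part of these cells in the interleukin values below was not tested, and in bulk RNA fewer cells of a type and less RNA per cell cannot be told apart.

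The IL-1 family, which includes early alarm signals of inflammation, held 4 of the 10 lower genes and 14 of the 55 detected members. Il1b, which encodes the inflammatory cytokine IL-1 beta, had a signal of 839 ± 84.0 in young and 295 ± 29.7 in aged cells. Its level was 1.71 in young and 0.58 in aged cells, a difference of -1.13 ± 0.20, or 2.20-fold lower. A second probe for Il1b, placed at base 722 of the transcript where the first is at base 1255, gave -1.08 ± 0.22. These probes are shown because they gave close values at separate places of 1 transcript, and the 30 bases at the start of each 60-base probe are given here, written 5′ to 3′ with the NCBI37 (mm9) coordinates of the whole probe. Another Il1b probe, designed on another transcript, was not detected on either array.
Il1b probe at base 722, chr2:129190880-129190939, minus strand: ggaaaagcggtttgtcttcaacaagataga
Il1b probe at base 1255, chr2:129190347-129190406, minus strand: aggttcctataatatggatgagaattttta

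Il1rn, which encodes the antagonist that occupies the IL-1 receptor without signalling, was the member with the largest measured decrease. Its signal was 128 ± 13.1 in young and 17.5 ± 3.61 in aged cells, close to the lowest signal that counted as detected. The levels of -1.01 and -3.50 differ by -2.49 ± 0.33, or 5.64-fold lower. The difference stayed past 2-fold under all 8 scalings, from -2.75 to -1.02. A second probe for Il1rn was not detected on either array. The first 30 bases of the detected probe were as follows.
Il1rn probe at base 1593, chr2:24206125-24206184, plus strand: tttcttgaccattcattttatcacttctaa

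No other gene of IL-1 signalling passed 2-fold as far as it was measured. Il1a, the other classical IL-1 ligand, was just detected on the young array (signal 15.4) and not on the aged array, and allows no fold. The signalling receptor Il1r1 went from -1.94 to -2.30, a difference of -0.35 ± 0.26. The decoy receptor Il1r2, which binds IL-1 without signalling, went from -2.03 to -2.61, a difference of -0.58 ± 0.26. Neither passed 2-fold. The shared accessory chain Il1rap differed by -0.69 ± 0.21 by its brightest probe and by 0.34 by another, the only gene of the 15 with several probes on both arrays whose probes differed by over 1 on the log2 scale.

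Receptors for IL-33 and IL-36 were lower, and the detected ligands stayed within 2-fold. Il1rl1, the receptor chain for IL-33 known as ST2, went from -1.44 to -3.25, a difference of -1.80 ± 0.32 or 3.49-fold lower, by 1 of its 3 probes, and the other 2 were not detected on either array. The alarmin ligand Il33 itself differed by 0.14 ± 0.33. Il1rl2, the IL-36 receptor, had a level of -2.23 on the young array and was not detected on the aged array, at least 2.62-fold lower. A second Il1rl2 probe was not detected on either array. Of the IL-36 ligands, Il1f8 (IL-36 beta) differed by 0.45 ± 0.30 by 1 of 2 probes, and Il1f6 (IL-36 alpha) and Il1f9 (IL-36 gamma) were not detected. With the normexp correction Il1rl1 differed by -0.58 and the limit for Il1rl2 was -0.15.

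For IL-18, a cytokine that epithelial cells store as a precursor, the ligand Il18 went from -2.11 to -3.03, a difference of -0.92 ± 0.28 that lay under 2-fold. Its receptor chain Il18r1 was detected on the young array only and was at least 1.93-fold lower, and the second chain Il18rap was not detected. Il18bp, the soluble protein that neutralizes IL-18, differed by 0.34 ± 0.21, and by 0.07 by its second probe. The ligand thus lay below 0 and the inhibitor above 0, and the limit for Il18r1 could only lie below 0. None of them was past 2-fold as reported. By position, 6 receptor genes of this family (Il1r2, Il1r1, Il1rl2, Il1rl1, Il18r1 and Il18rap) lie side by side on chromosome 1 of NCBI37 (mm9), where their probes span bases 40168971 to 40608060. Of the 5 detected genes of that cluster, Il1r2, Il1r1 and Il1rl1 were measured on both arrays and lay below 0 (Il1r1 reached 0.023 under 1 of the scalings). Il1rl2 and Il18r1 were detected on the young array only, so their limits could only lie below 0. Over the whole array, 7494 of 18694 measured genes lay below 0, and 2106 genes were detected on the young array only against 486 on the aged array only. In the cluster, Il1rl2 and Il1rl1 were past 2-fold. On chromosome 2, probes of Il1f8, Il1f9, Il1f6, Il1f5, Il1f10 and Il1rn span bases 24015564 to 24206184, and only Il1f8 and Il1rn were detected there, on either side of 0.

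In the IL-6 and IL-12 group, whose cytokines share receptor chains of the gp130 type, the ligand Il12b was higher. Il12b encodes the p40 subunit that IL-12 and IL-23 have in common. Its signal was 51.1 ± 5.97 in young and 87.2 ± 9.26 in aged cells, and the levels of -2.32 and -1.18 differ by 1.14 ± 0.23, or 2.21-fold. The difference was between 0.69 and 1.32 over the scalings and past 2-fold in 6 of 8. Il12b was the member with the largest measured increase, but neither subunit that completes an active cytokine with it, Il12a for IL-12 and Il23a for IL-23, was detected on either array. The receptor chains Il12rb1, Il12rb2 and Il23r were not detected either. The single Il12b probe is shown as the sole evidence for this increase, with the letters ATTTA, the core of the AU-rich elements known from unstable cytokine transcripts, in capitals.
Il12b probe at base 1106, chr11:44226781-44226840, plus strand: aagaaaaATTTAaactcaggatggaagagt

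That pentamer was found in 10 of the 58 ligand probes (17.2%), in 5 of the 77 receptor probes (6.49%) and in 8.08% of all 56605 probes of the same length. Its reverse complement TAAAT was found in 4 ligand probes (6.90%), 11 receptor probes (14.3%) and 5684 of all 56605 probes. These are counts of letters in the windows chosen by the maker of the array. They describe the probes, not binding sites.

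The IL-6 receptor chain Il6ra gave opposite values by its probes, and the gene has no settled direction. The brightest probe, at base 2509 of the transcript, had a signal of 538 ± 53.9 in young and 155 ± 15.8 in aged cells. The levels of 1.07 and -0.35 differ by -1.42 ± 0.21, or 2.68-fold lower. The other probe, at base 1242 of the same transcript, was not detected on the young array (signal 11.9) and had a signal of 91.0 ± 9.82 on the aged array, at least 8.37-fold higher. The lower value of the brightest probe held under all 8 scalings, from -1.68 to -1.21, whereas the mean over both probes was 0.94. Both probes were matched in the files to the same RefSeq transcript, NM_010559, and the first 30 bases of each are shown because the gene's direction depends on which is read.
Il6ra probe at base 1242, chr3:89680743-89680802, minus strand: cctgcccacattcctggtagctggaggaag
Il6ra probe at base 2509, chr3:89674054-89674113, minus strand: aggaccaagtgcagtaacggtagcccaaac

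Of the other genes of this group named here, only Ebi3 and Il27ra passed 2-fold. Il6, a cytokine of the acute phase, went from -1.48 to -1.71, a difference of -0.23 ± 0.22. Il6st, which encodes gp130, the signalling chain shared by IL-6, IL-11 and IL-27, differed by -0.11 ± 0.21, and by 0.32 by a second probe. Il11 and its receptor chain Il11ra1 differed by 0.23 ± 0.36 and 0.22 ± 0.20, the Il11ra1 probe being matched in the files to a near-identical copy of the gene as well. For IL-27, the subunit Il27 differed by -0.14 ± 0.22 and its partner subunit Ebi3 by -1.85 ± 0.24, or 3.60-fold lower. The receptor chain Il27ra had a level of -2.77 on the young array and was not detected on the aged array, at least 2.03-fold lower, a limit that passed 2-fold in 5 of 8 scalings. Il31ra differed by 0.25 ± 0.42 by its brightest probe, and another probe was detected on the young array only, with no fold. Genes of IL-27 were therefore lower by its Ebi3 subunit and its receptor chain, but not by the Il27 subunit or gp130.

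Il34, the ligand found higher beside Il12b, encodes a cytokine that supports the survival of macrophages by binding the receptor CSF1R. Its signal was 540 ± 54.1 in young and 838 ± 83.9 in aged cells. The levels of 1.08 and 2.08 differ by 1.01 ± 0.20, or 2.01-fold. The second probe gave 1.08 ± 0.21, so the 2 probes of Il34 differed by 0.069. The value lay at the threshold and passed it in 3 of 8 scalings, with a range from 0.75 to 1.18. Its receptor gene Csf1r differed by -0.62 and the other CSF1R ligand, Csf1, by -0.30. The probes are shown as the pair that carries this increase.
Il34 probe at base 1176, chr8:113266547-113266606, minus strand: tgcggcccaaagccttgctggacaactgct
Il34 probe at base 1693, chr8:113265835-113265894, minus strand: aagaacgacggggtgcctcctaggatccca

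In the IL-10 family, chains of the same receptor went apart. Il10ra, the chain that binds the anti-inflammatory cytokine IL-10, had a signal of 227 ± 22.9 in young and 42.5 ± 5.23 in aged cells. The levels of -0.17 and -2.22 differ by -2.05 ± 0.23, or 4.13-fold lower, and the difference was past 2-fold under all 8 scalings, from -2.30 to -1.22. A second Il10ra probe was detected on the young array only, at least 1.21-fold lower. Il10rb, the chain that IL-10 shares with IL-22, went from 2.67 to 2.55, a difference of -0.12 ± 0.20. Il10 itself was close to the detection limit, at -2.93 and -3.48. Il10ra, Il1b, Il1rn and Il7r, all of them lower here, are known from leukocytes. Il2rg, Il2rb and Il21r, also known from leukocytes, stayed within 2-fold (0.30, 0.04 and -0.24). Leukocyte markers had medians of -1.39 (macrophages and dendritic cells), -1.51 (pan-leukocyte), -0.19 (B cells), 0.31 (T cells), -0.18 (neutrophils) and -0.07 (mast cells). The part of those cells in these values was not tested.

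Of the family's epithelial receptors, Il20rb, a chain of the receptors for IL-19, IL-20 and IL-24, went from -1.08 to -2.11, a difference of -1.03 ± 0.23 or 2.04-fold lower, past 2-fold in 5 of 8 scalings. A second Il20rb probe was not detected on either array. The partner chain Il20ra was not detected. Il22ra1, through which IL-22 acts on epithelia, differed by 0.15 ± 0.20. Among the ligands, Il24 differed by -0.25 ± 0.21, and by 0.38 by a second, dimmer probe. Il22 differed by 0.35 ± 0.41, and Il19 and Il20 were not detected. Both Il22 probes are also matched to the near-identical gene Iltifb.

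For the cytokines that use the common gamma chain, which govern the growth and survival of lymphocytes, the shared chain Il2rg itself went from 4.62 to 4.91, a difference of 0.30 ± 0.20. Il7r, the IL-7 receptor chain of lymphocytes, had a signal of 82.1 ± 8.72 on the young array and was not detected on the aged array, at least 4.45-fold lower, with a limit of -0.80 under normexp. A second Il7r probe was not detected on either array. The ligand Il7 was not detected by any of 3 probes. The other ligand that binds Il7r, Tslp, was detected on the young array only and allows no fold, and its second receptor chain Crlf2 differed by 0.06. Il7r was thus lower while the chains with which it pairs, Il2rg and Crlf2, were not.

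No other gamma chain gene passed 2-fold, as far as they were measured. Il15, which supports natural killer cells and intraepithelial lymphocytes, differed by -0.37 ± 0.20, and its 3 probes lay between -0.37 and -0.06. Il15ra, which presents IL-15 to neighbouring cells, differed by 0.21 ± 0.20, with its 3 probes between -0.26 and 0.21. Il2, the growth factor of T cells, differed by 0.05 ± 0.28, and its receptor chains Il2ra and Il2rb by -0.18 and 0.04. Il21r differed by -0.24. Il4ra, the chain shared by the receptors for IL-4 and IL-13, went from -1.18 to -1.91, a difference of -0.73 ± 0.23. Il13ra1, its partner, differed by -0.28 ± 0.21, and the IL-13 decoy Il13ra2 by -0.13 ± 0.27. A second Il13ra2 probe was detected on the young array only, at least 1.27-fold lower. Il13 was at least 1.78-fold lower by its limit and Il4 was not detected. Il9 was detected on the young array only, at least 1.28-fold lower. Il4i1, an enzyme gene named for its induction by IL-4 and known from antigen-presenting cells, went from 0.51 to -1.43, a difference of -1.94 ± 0.21 or 3.83-fold lower, by a probe that also matches the overlapping gene Il4i1b.

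Receptors for IL-3 and IL-5 depend on a beta chain that they share with the receptor for GM-CSF. Il3ra differed by -0.54 ± 0.21 by its brightest probe and by 0.34 by another, and Il5ra by 0.44 ± 0.21. Of the beta chains, Csf2rb differed by -0.02 and Csf2rb2, the beta chain specific to IL-3 in mice, by -2.40 ± 0.24, or 5.27-fold lower. The GM-CSF receptor chain Csf2ra differed by -1.03 ± 0.20, just past 2-fold. Il3 differed by 0.27 ± 0.43 at a signal near the detection limit, and Il5 was not detected.

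In the IL-17 family, which drives chemokine and antimicrobial responses of epithelia, no member passed 2-fold. Il17d, the only detected ligand, went from 1.67 to 2.26, a difference of 0.59 ± 0.20. Il17ra, the chain common to the receptors of this family, went from -1.82 to -2.43, a difference of -0.61 ± 0.24. Il17rc, which pairs with it for IL-17A, differed by 0.10 and 0.13 by 2 probes, and Il17re, the receptor for IL-17C, by -0.17 and -0.14. Il17rd differed by 0.10 ± 0.20 by its brightest probe. A second Il17rd probe was detected on the aged array only, at least 1.70-fold higher, and the last on the young array only, with no fold. Il17rb was at least 1.21-fold lower by its limit. Il16, a chemoattractant for CD4+ cells, differed by 0.38 ± 0.28 by its brightest probe, while another probe was at least 1.84-fold lower by its limit.

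Of the 24 genes with several detected probes, 15 had at least 2 probes measured on both arrays. Their probes differed by a median of 0.301 on the log2 scale and by at most 0.5 in 12 of the 15. The members whose call rests on more than 1 probe measured on both arrays were Il1b and Il34. The calls of Il10ra, Il1rl1, Il1rn, Il20rb, Il12b and Il4i1 each rested on 1 such probe, and the call of Il6ra was contradicted by its other probe. The limits for Il7r, Il1rl2 and Il27ra each rested on 1 probe, detected on the young array only.

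**Figure D3:**
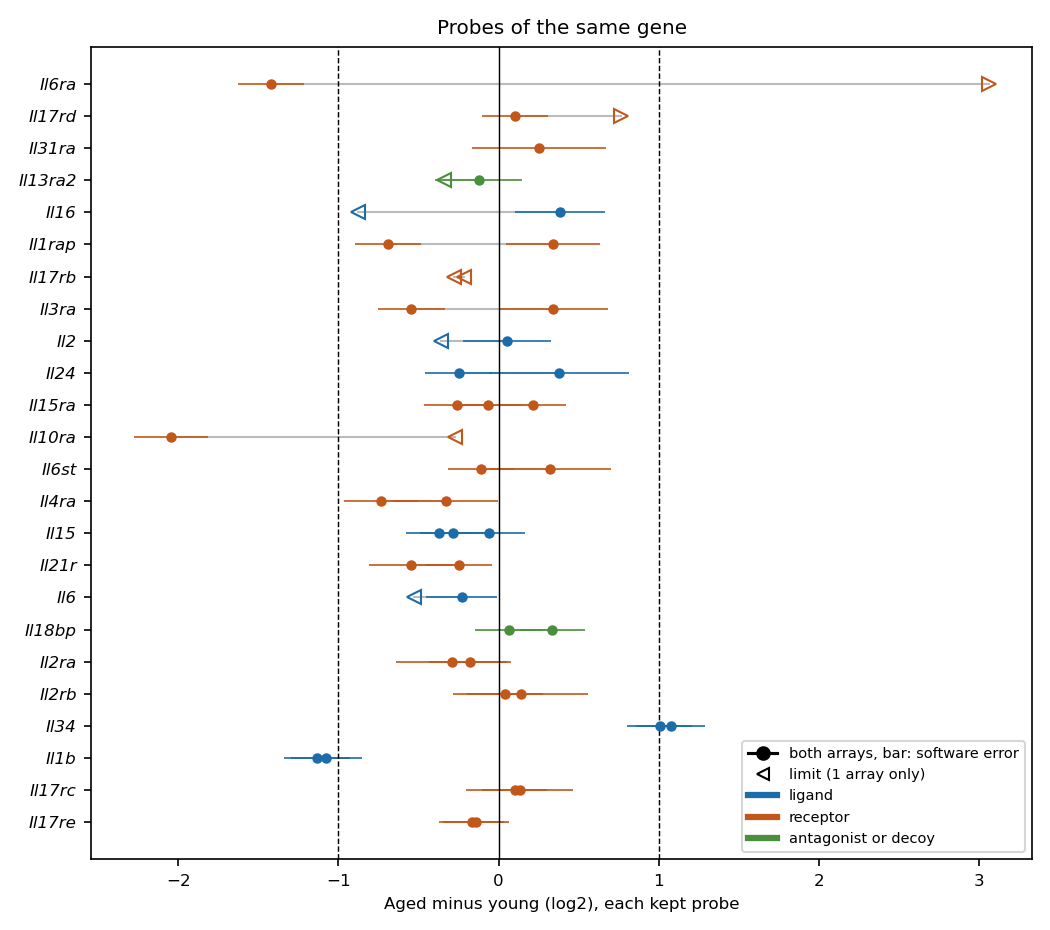
Aged minus young on the log2 scale for each detected probe of the 24 genes with several detected probes; points with bars (software error) were measured on both arrays, open triangles are limits, and a probe that allows no limit is not drawn. The probes of Il1b and Il34 lie within 0.1 of each other, and those of Il6ra lie on opposite sides of 0.

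Past the receptor, no signalling gene measured on both arrays reached 2-fold as reported. Of 51 listed partner genes, 46 were measured on both arrays, with a median of -0.07. Of these 46 genes, 4 were 2-fold or more lower and 0 higher, against 3.04% and 1.51% of all genes measured in this way. The 4 were Csf2rb2, Osm, Ebi3 and Csf2ra, all of them ligands or receptor chains. Osm, a cytokine of the IL-6 group made largely by myeloid cells, went from -1.20 to -3.06, a difference of -1.86 ± 0.28 or 3.64-fold lower. Its receptor chain Osmr differed by 0.28 and Lifr by -0.48. Stat4 was detected in young cells alone, and its limit was -0.27 on the log2 scale. The 4 JAK genes lay between -0.51 and 0.22 with a median of -0.22, the 6 STAT genes measured on both arrays between -0.19 and 0.33 with a median of -0.15, and the 8 SOCS genes between -0.35 and 0.40 with a median of -0.13. Stat3 differed by 0.02 and its inhibitor Socs3 by 0.11. Of the 14 adaptor genes of IL-1 and IL-17 receptors, which lay between -0.75 and 0.36 with a median of 0.024, Casp1, the protease that matures IL-1 beta and IL-18, was the lowest and Myd88 the highest.

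**Figure D4:**
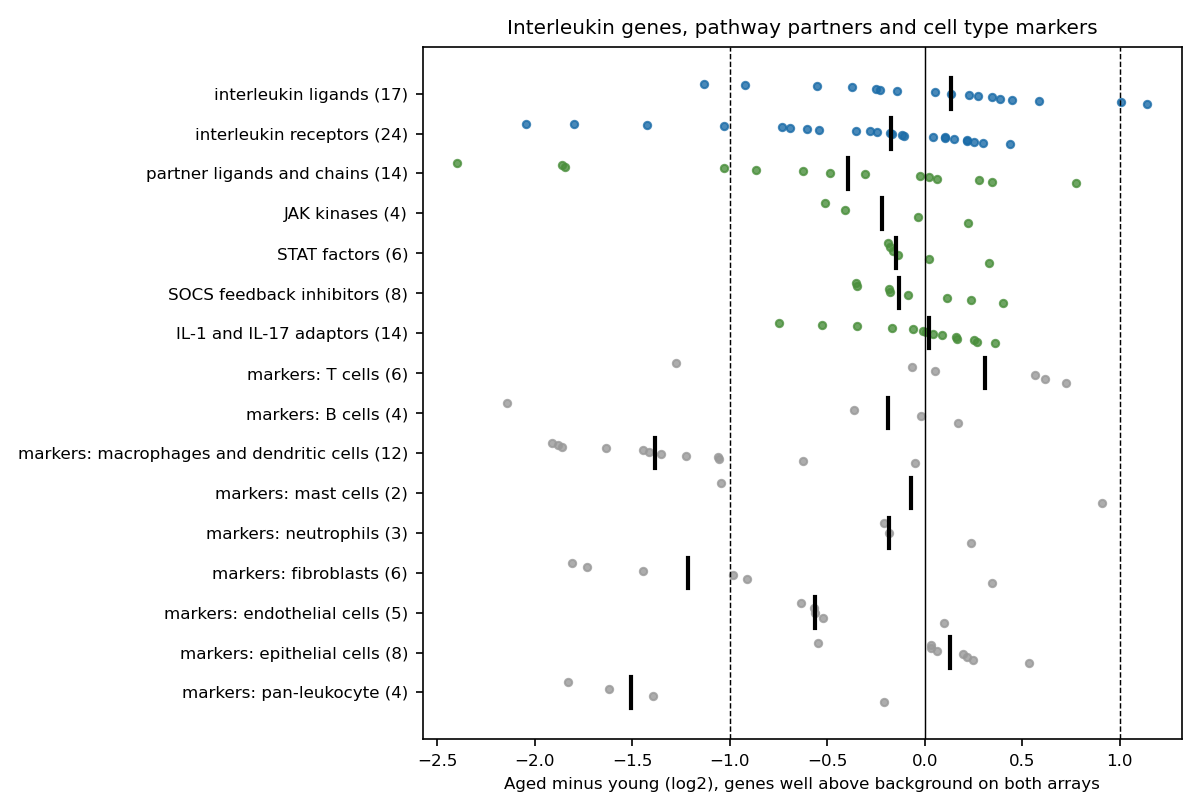
Aged minus young on the log2 scale for genes well above background on both arrays (number in brackets), as points with a black bar for the median: interleukin ligands and receptors (blue), pathway partners (green) and cell type markers (grey). Kinases, STAT factors and feedback inhibitors lie within 2-fold (dashed lines), whereas 10 of the 12 markers of macrophages and dendritic cells lie below the lower line.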

How the data were processed

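The arrays were of the Agilent SurePrint G3 mouse format, scanned on 1 slide. The deposited scanner files, made by the authors with Agilent Feature Extraction 12.0.3.1, hold for every spot a background-subtracted and detrended intensity, its error, the raw mean and local background, and flags, without scaling between arrays. The authors' processed table holds the same intensity divided by 1 constant per array (229 for young and 176 for aged). Here log2 of the processed intensity was taken over the 75th percentile of the 59305 non-control spots (256 young, 198 aged), as the methods name. No member spot was an outlier or saturated. Genes were named as in the files. Of the 148 member probes, 126 matched a RefSeq gene (GRCm38.p6, names only) and 4 of these matched several genes. Probe coordinates and sequences are those of the files, on NCBI37 (mm9). The files do not say whether a probe lies in a coding or an untranslated part. To stay short of long untranslated stretches, 30 bases of each probe are printed. Members, lists and rules were chosen with earlier results of these data known. Every member past 2-fold by the probe that stands for it is reported, as are the partner and marker lists. So is every member whose probes measured on both arrays differed by over 1 on the log2 scale. Other differences between probes are given for part of the genes. The software errors of both signals were combined to the ± of a difference.

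The alternatives tried were median centring, a 75th percentile taken over probes detected on both arrays, quantiles made equal, a loess fit (span 0.7, 3 iterations), spike-in controls (8 probes), normexp with an offset of 50, the authors' table, other filters, outlier spots kept, and other choices of probe or member. The 8 scalings are the reported one and the first 7 of these. The authors' table is the reported scaling up to a constant per array, so tallies out of 8 count nearly the same scaling again. R 4.3.3 with limma 3.58.1, Python 3.11.15, numpy 2.4.6, pandas 2.3.3 and matplotlib 3.10.9 were used, and the steps were tested on simulated data.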

Additional observations from a re-analysis of the deposited data

How the results depend on the processing

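The software error of a difference had a median of 0.221 over the member genes measured on both arrays, between 0.204 and 0.425. With 1 array per age there was no replicate to leave out. No paired analysis was possible because each age had 1 array and no test was made. Of the 12 genes past 2-fold, none changed sign under any of the 8 scalings, and 4 (Il10ra, Il1rn, Il4i1 and Il6ra) stayed past 2-fold under all of them. Scalings that shift a whole array moved all genes by between -0.255 and 0.175, too little to turn the sign of a gene past 2-fold. For those scalings the lack of a sign change was fixed in advance. By the mean over its kept probes, Il6ra reversed to 0.94. The number of higher members was 2 as reported, 1 with the 75th percentile over probes detected on both arrays, 1 with loess, 0 with spike-in controls, 0 with normexp and 5 without a filter on dim probes. Over all genes, the higher ones numbered 538, 442, 482, 349, 182 and 1680 in the same order, the last of 36866 genes and the others of 21286. The number of lower members was 10 as reported and 5 with normexp, and lay between 7 and 13 under the other settings. Over all genes, 1094 were lower as reported and 297 with normexp. Under the other settings, which kept between 18705 and 36866 genes, between 569 and 2398 were lower. With spike-in controls the ligand median was -0.12 and the receptor median -0.43, against 0.14 and -0.17 as reported. The partner genes lower on the aged array numbered 4 as reported, 2 with normexp, 3 with median centring and 6 with spike-in controls. They numbered 5 with quantile normalization, without a filter on dim probes and with any kept probe. The cause of these changes was not tested beyond the shift each scaling gives to all genes. The median difference of all genes moved by 0.175 with median centring and -0.112 with the 75th percentile over probes detected on both arrays. It moved by -0.142 with loess, -0.255 with spike-in controls and -0.063 with quantile normalization. With normexp, which gave the fewest lower members, it moved by only 0.01. Single genes moved unequally under normexp, Il1rl2 by its limit from -1.391 to -0.149 and Il1b from -1.135 to -1.058. Of 584 recomputed values of single genes, 509 moved by less than the software error of the gene. Part of these could hardly move. No member spot was an outlier, and the authors' table shifted the median of all genes by 0.006. Other filters left many genes on the same probe, so this count is no measure of robustness. Scalings do not change which probes count as detected, so detection counts were recomputed only for the filter, outlier and member choices, and stayed within 1.5 times of those reported.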
